A study of Mus musculus with 15 samples.

Results

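Wt1, Bnc1, Gata5, Tbx20, Tcf21, Tbx18 and Hand2 are transcription factor genes used to recognise the epicardium, the cell layer that covers the heart, and the cells that derive from it. The 7 genes were chosen by name, and all 7 had a value, out of 13513 named genes with a value in the series. Affymetrix arrays measured their expression in 3 cell populations of the mouse heart, each with 5 arrays. EpiSC were stromal cells of the epicardium, 5 days after a myocardial infarction, aCF were fibroblasts of hearts 5 days after infarction, and CF were fibroblasts of unstressed control hearts. All mice were wild-type C57BL/6 aged 8 to 12 weeks, and no group of sham-operated animals is named in the labels. Per the labels' protocols, perfused hearts were digested with collagenase, shear released the EpiSC from the surface of the heart, and the atria were cut away before the fibroblast fractions were prepared. Cell type and isolation method therefore changed together between EpiSC and the fibroblasts and cannot be told apart.

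Gene names rest on an inference about the table. As deposited, genes that work together did not vary together, and each identifier was therefore paired with the value 6900 rows further down, with 3 more rows for identifiers of chromosomes 10 and 11. No source states this displacement, and it was chosen on these values. Over 34 genes of the cell cycle (chromosomes 1 to 9 and X) the mean pairwise correlation of the deviations from the group means was 0.228 at this offset and 0.02 as deposited, and no other of 10971 offsets gave more than 0.0949. These correlations are across genes within the same 15 arrays and describe the table. The extra 3 rows touch only Tcf21 among the 7 genes, and they rest on 4 cell cycle genes of chromosomes 10 and 11, whose mean correlation with the cell cycle profile was 0.668 with them and -0.01 without them. The highest value at the other extra offsets, of 21 tried in all, was 0.275. For the other genes the check was made on the cell cycle genes of each chromosome against the profile of the rest. It gave 0.484 for chromosome 2 (8 genes), 0.535 for 7 (4 genes), 0.565 for 8 (2 genes) and 0.502 for 9 (4 genes). The best of 50 nearby offsets gave 0.239, 0.407, 0.463 and 0.264. The margin was thus small for Bnc1 on chromosome 7 and for Hand2 on chromosome 8.

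The adult epicardium is a mesothelium that is quiet in the healthy heart and becomes active after injury. In mouse development its cells undergo an epithelial to mesenchymal transition and give rise to fibroblasts and mural cells of the heart. Wt1 is a zinc finger factor of the embryonic and the injured epicardium, and Bnc1, basonuclin, is a zinc finger protein of mesothelia and stratified epithelia. Gata5 belongs to the GATA factors of heart and endoderm, Tbx18 and Tbx20 to the T-box factors, and Tcf21 and Hand2 to the basic helix-loop-helix factors. In the mouse, Tcf21 marks epicardial precursors of fibroblasts and the resident fibroblasts of the adult heart, Tbx20 is also active in heart muscle and endocardium, and Hand2 is needed in the second heart field and the epicardium.

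RefSeq's table for GRCm38.p6 held a promoter window, from 250 bases before to 50 bases after the start, for 6 of the 7 genes. The windows of Gata5 and Bnc1, which were both higher in EpiSC, and of Tbx20 and Tcf21, whose EpiSC arrays all lay lowest, are shown 5′ to 3′ to set the genes of opposite pattern side by side. They lie at chr2:180334630-180334929 on the minus strand, chr7:81992250-81992549 on the minus strand, chr9:24774254-24774553 on the minus strand and chr10:22820094-22820393 on the minus strand. Capitals mark matches, on either strand, to the letters AGATAA of GATA factors, CANNTG of helix-loop-helix factors (E-box), GGTGTGA of T-box factors, GCGGGGGCG of Egr factors and Wt1, GGAATG of TEAD factors and TATAAA of the TATA box.
Gata5: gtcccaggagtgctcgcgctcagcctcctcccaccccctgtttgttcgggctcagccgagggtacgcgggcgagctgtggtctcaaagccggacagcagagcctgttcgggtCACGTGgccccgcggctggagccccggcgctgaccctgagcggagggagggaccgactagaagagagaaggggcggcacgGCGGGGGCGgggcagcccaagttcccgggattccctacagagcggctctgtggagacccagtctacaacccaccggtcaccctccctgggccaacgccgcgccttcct
Bnc1: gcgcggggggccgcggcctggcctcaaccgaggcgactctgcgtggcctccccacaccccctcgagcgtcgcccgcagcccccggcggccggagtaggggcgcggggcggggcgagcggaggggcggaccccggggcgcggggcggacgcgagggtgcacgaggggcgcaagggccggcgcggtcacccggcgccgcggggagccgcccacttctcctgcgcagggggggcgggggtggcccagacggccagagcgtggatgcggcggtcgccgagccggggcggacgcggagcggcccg
Tbx20: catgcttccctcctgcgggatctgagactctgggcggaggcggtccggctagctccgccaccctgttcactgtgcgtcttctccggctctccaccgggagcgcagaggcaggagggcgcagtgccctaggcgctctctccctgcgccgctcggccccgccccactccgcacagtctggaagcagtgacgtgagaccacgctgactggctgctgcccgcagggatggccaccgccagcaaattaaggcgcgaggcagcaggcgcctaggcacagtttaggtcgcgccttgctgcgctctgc
Tcf21: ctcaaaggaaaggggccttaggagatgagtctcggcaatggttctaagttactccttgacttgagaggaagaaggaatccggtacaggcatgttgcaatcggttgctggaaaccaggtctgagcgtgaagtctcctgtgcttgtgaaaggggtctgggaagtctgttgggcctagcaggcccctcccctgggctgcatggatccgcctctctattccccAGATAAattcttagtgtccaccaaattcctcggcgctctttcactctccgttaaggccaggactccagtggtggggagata
The Gata5 window held GCGGGGGCG at position -58 from the start, letters found in 2.91% of 32851 windows of this length, and 1 E-box, found in 72.3%. The window of Tcf21 held AGATAA at position -31, letters found in 11.2% of all windows. Neither match was particular to a pattern of expression. The window of Hand2, not shown, held the Egr and Wt1 letters at -73 and the GATA letters at -172, both on the other strand. Hand2 overlapped between EpiSC and the fibroblasts. None of the 6 sets of letters was in the windows of Bnc1 and Tbx20, and the T-box, TEAD and TATA letters, in 3.98%, 14.7% and 13.6% of windows, were in none of the 4. The share of G and C was 83.3% for Bnc1, 69.7% for Gata5, 68.3% for Tbx20 and 53.3% for Tcf21, against a median of 52.7% over all windows. A match is a description of the letters and not a binding site.

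The 7 genes fell into 3 patterns. Wt1, Bnc1 and Gata5 were higher in EpiSC than in either fibroblast group, by 4.03 to 7.12 fold. Tbx20 and Tcf21 lay lower in all 5 EpiSC arrays than in any fibroblast array, without passing the Bonferroni threshold. Tbx18 and Hand2 overlapped between EpiSC and the fibroblasts. All values are on the log2 scale with the 15-array median of each probe set at 0. Groups can be compared for a gene, whereas its level and its signal over background are not known.

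**Figure D1:**
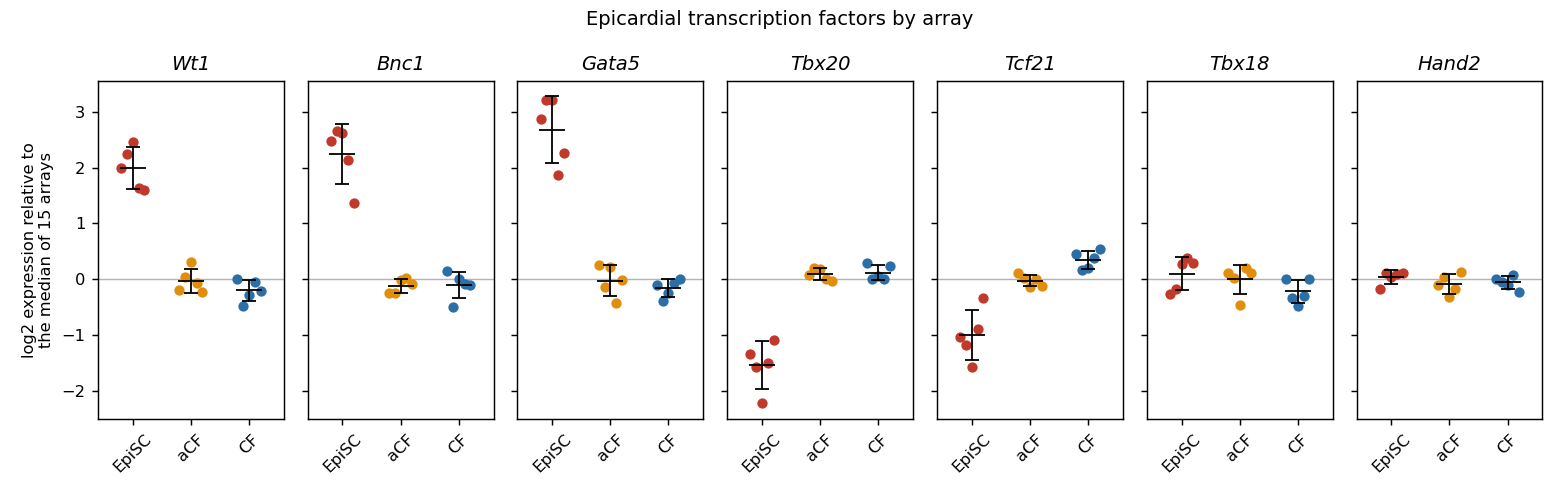
Log2 expression of the 7 genes relative to the median of 15 arrays (y axis) for EpiSC, aCF and CF (x axis). Points are arrays and black bars give the mean and SD of 5 arrays. The EpiSC arrays lie between 1.36 and 3.20 for Wt1, Bnc1 and Gata5 and between -2.22 and -0.34 for Tbx20 and Tcf21, and each of these ranges lies apart from the fibroblast arrays of the same gene.

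The comparison of EpiSC with aCF sets cells of the infarcted heart's surface against fibroblasts of the infarcted ventricle. Of the 7 genes, 3 passed limma's moderated test with Bonferroni adjustment over all 22206 probe sets, all 3 higher in EpiSC. Over all probe sets 0.666% passed, with 0.401% higher in EpiSC. With Benjamini-Hochberg adjustment 5 of the 7 passed, 3 higher and 2 lower, where 9.61% of all probe sets did, 4.61% higher and 5.01% lower. The groups did not overlap for 5 of the 7 genes and for 9.91% of all probe sets. The median difference was 0.12 for the 7 genes and 0.01 over all probe sets.

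Gata5 was at 2.86, 3.20, 3.20, 1.86 and 2.26 in EpiSC1 to EpiSC5, against 0.25, -0.14, 0.22, -0.43 and -0.01 in aCF1 to aCF5 and -0.10, -0.38, -0.24, -0.06 and 0 in CF1 to CF5. Every EpiSC array lay above every fibroblast array, and the aCF and CF arrays overlapped. The log2 difference between EpiSC and aCF was 2.70 ± 0.26 (SE, n = 5 arrays per group, limma, Bonferroni-adjusted p = 0.024), a 6.49-fold difference and the 14th highest of 13513 named genes. Gata5os, a noncoding gene that overlaps Gata5 in the reference annotation, has a probe set of its own, with a difference of 0.43 ± 0.09 that was not past the threshold (adjusted p = 1).

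Bnc1 was at 2.48, 2.66, 2.61, 2.13 and 1.36 in EpiSC1 to EpiSC5, against -0.25, -0.25, -0.01, 0.02 and -0.09 in aCF1 to aCF5 and 0.14, -0.49, 0, -0.09 and -0.10 in CF1 to CF5. EpiSC5 was the lowest of the EpiSC arrays and still lay well above the highest fibroblast array, CF1. The difference between EpiSC and aCF was 2.36 ± 0.22 (adjusted p = 0.017 by limma), a 5.15-fold difference, 32nd from the top. The value for Bnc2, the other basonuclin gene, was -0.29 ± 0.15, not past the threshold (adjusted p = 1).

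Wt1 was at 1.99, 2.25, 2.45, 1.64 and 1.59 in EpiSC1 to EpiSC5, against -0.20, 0.04, 0.31, -0.06 and -0.23 in aCF1 to aCF5 and 0, -0.47, -0.28, -0.04 and -0.21 in CF1 to CF5. The groups of EpiSC and fibroblasts did not overlap, and aCF3 was the highest of the fibroblast arrays. EpiSC exceeded aCF by 2.01 ± 0.18 on the log2 scale (adjusted p = 0.00884 by limma), a 4.03-fold difference, 49th from the top.

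Several of these calls were lost when arrays were left out. Without aCF4 and aCF5, which lay nearest to EpiSC on the first principal component of all named genes, none of the 7 genes passed (Wt1 adjusted p = 0.43, Bnc1 adjusted p = 0.559, Gata5 adjusted p = 0.839), while the differences were 1.93, 2.42 and 2.57. In single omissions Wt1 did not pass without EpiSC1, aCF1, aCF2, aCF4 or aCF5 (adjusted p up to 0.0595). Bnc1 passed only without EpiSC5 (0.11 at most otherwise) and Gata5 only without EpiSC4 (0.15 at most otherwise). With replicate number as a block in the limma fit of all arrays of both groups, Bnc1 (0.602) and Gata5 (0.0679) did not pass and Wt1 did (0.0153).

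**Figure D2:**
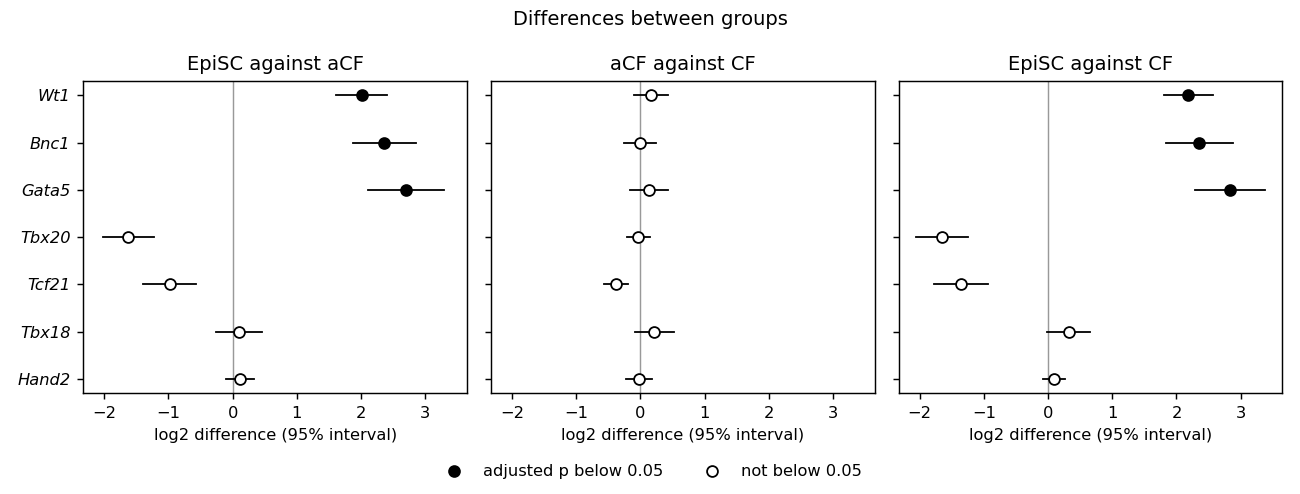
Log2 differences between groups (x axis) for the 7 genes (y axis), 1 panel per comparison. Points are estimates, filled where the Bonferroni-adjusted p was below 0.05, and lines are 95% intervals from limma. Wt1, Bnc1 and Gata5 are filled in both comparisons with EpiSC, and no gene is filled for aCF against CF.

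Tbx20 was at -1.33, -1.56, -2.22, -1.49 and -1.08 in EpiSC1 to EpiSC5, against 0.08, 0.21, 0.19, 0 and -0.03 in aCF1 to aCF5 and 0.29, 0.01, 0.06, 0 and 0.23 in CF1 to CF5. EpiSC3 was the lowest array, and the fibroblast groups overlapped. The difference between EpiSC and aCF was -1.63 ± 0.18 (95% interval -2.02 to -1.23), 53rd from the bottom of 13513 named genes. It did not pass Bonferroni adjustment (adjusted p = 0.0716) but passed Benjamini-Hochberg adjustment (0.000419), and it passed Bonferroni adjustment in a fit of all 15 arrays (0.00109), after quantile normalization (0.0181), over the paired rows alone (0.0225), and without EpiSC3 or EpiSC5 (0.00442 at the lowest). In a trended and robust fit its adjusted p was 1, and it did not pass with replicate number as a block or without aCF4 and aCF5 either. The trend of that fit follows the mean of centred values, which is not signal intensity.

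Tcf21 was at -1.04, -1.17, -1.57, -0.89 and -0.34 in EpiSC1 to EpiSC5, against 0.11, 0.02, -0.13, 0 and -0.12 in aCF1 to aCF5 and 0.45, 0.17, 0.21, 0.39 and 0.55 in CF1 to CF5. Its groups were ordered with EpiSC lowest, aCF between and CF highest, and no pair of groups overlapped. The difference between EpiSC and aCF was -0.98 ± 0.19 (95% interval -1.39 to -0.56), which did not pass Bonferroni adjustment (adjusted p = 1) and passed Benjamini-Hochberg adjustment (0.00885). EpiSC5, at -0.34, lay nearest to the fibroblasts. The value rests on the extra 3 rows of the pairing: without them the difference was -0.07 (adjusted p = 1).

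Tbx18 was at -0.26, -0.17, 0.27, 0.38 and 0.29 in EpiSC1 to EpiSC5, against 0.11, 0.03, -0.46, 0.20 and 0.11 in aCF1 to aCF5 and 0, -0.33, -0.47, -0.29 and 0 in CF1 to CF5. Its EpiSC arrays split, with EpiSC1 and EpiSC2 below most aCF arrays. EpiSC and aCF differed by 0.10 ± 0.16 (95% interval -0.26 to 0.47, adjusted p = 1). Hand2 was at -0.18, 0.11, 0.05, 0.10 and 0.11 in EpiSC1 to EpiSC5, against -0.10, 0.05, -0.31, -0.18 and 0.13 in aCF1 to aCF5 and 0, -0.04, -0.10, 0.08 and -0.22 in CF1 to CF5, and EpiSC and aCF differed by 0.12 ± 0.10 (95% interval -0.10 to 0.34, adjusted p = 1). Tbx18 and Hand2 did not pass Benjamini-Hochberg adjustment either (0.757 and 0.507).

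The comparison of aCF with CF sets fibroblasts of infarcted hearts against those of unstressed hearts. By limma 0 of the 7 genes passed Bonferroni adjustment, where 1.53% of all probe sets did. At an unadjusted p under 0.05 and after Benjamini-Hochberg adjustment 1 gene did, Tcf21, where the adjustment passed 18.1% of all probe sets, with 9.38% lower in aCF. Tcf21 was at -0.02 ± 0.10 in aCF and 0.35 ± 0.16 in CF (SD, n = 5 each), a difference of -0.38 ± 0.09 (95% interval -0.57 to -0.19, adjusted p = 1 by Bonferroni and 0.0114 by Benjamini-Hochberg). It was the only 1 of the 7 genes whose aCF and CF arrays did not overlap, as for 14.7% of all probe sets.

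The differences of the other 6 genes between aCF and CF lay between -0.03 and 0.22. The 3 genes that were higher in EpiSC differed between the fibroblast groups by 0.17 for Wt1 (95% interval -0.10 to 0.44), 0.13 for Gata5 (-0.16 to 0.43) and -0.01 for Bnc1 (-0.26 to 0.24). Tbx18 differed by 0.22 (-0.09 to 0.52), Tbx20 by -0.03 (-0.20 to 0.15) and Hand2 by -0.03 (-0.23 to 0.18).

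In the comparison of EpiSC with CF, which shares its arrays with the other comparisons, the same 3 of the 7 genes passed Bonferroni adjustment, all higher, where 2.91% of all probe sets passed and 1.97% were higher. Benjamini-Hochberg adjustment passed 3 higher and 2 lower genes of the 7, and 32.2% of all probe sets (14.5% higher and 17.7% lower). The same 5 genes did not overlap between the groups, and 23.4% of all probe sets did not overlap. Gata5 was higher in EpiSC by 2.83 ± 0.25 (adjusted p = 0.00744), Bnc1 by 2.36 ± 0.24 (adjusted p = 0.0275) and Wt1 by 2.18 ± 0.17 (adjusted p = 0.0027). Wt1 passed in all 10 single omissions, Gata5 in all but the omission of CF3 (0.0532), and Bnc1 only without EpiSC5 (0.166 at most otherwise). Tbx20 differed by -1.65 ± 0.18 (adjusted p = 0.0636) and Tcf21 by -1.36 ± 0.19 (adjusted p = 0.673), both past Benjamini-Hochberg adjustment (9.06e-05 and 0.000486). Without EpiSC5 both passed Bonferroni adjustment, Tcf21 at 0.0291. Without EpiSC3 Tbx20 passed as well, and its lowest adjusted p over the single omissions was 0.00453. Tbx18 differed by 0.32 ± 0.15 (95% interval -0.01 to 0.65) and Hand2 by 0.09 ± 0.08 (-0.08 to 0.27), neither past the threshold (adjusted p = 1 for each).

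Markers of the mesothelium were also higher in EpiSC. Of 21 such markers 12 had a value, and 3 rose and 0 fell in EpiSC against aCF, with a median difference of 1.33 against 0.01 over all probe sets. The mesothelial secreted protein gene Dmkn rose by 3.64 ± 0.32 (adjusted p = 0.00983), the scaffold protein gene Slc9a3r1 by 2.41 ± 0.14 (adjusted p = 0.000118) and the Wnt pathway ligand gene Rspo1 by 1.48 ± 0.15 (adjusted p = 0.0321). Dmkn passed only without aCF3 or aCF5 (0.0639 at most otherwise), Rspo1 only without aCF3 (0.187 at most otherwise), and Slc9a3r1 in all 10 omissions. After quantile normalization Dmkn (0.895, difference 2.74) and Rspo1 (0.0668) did not pass, nor did Rspo1 in a trended and robust fit (0.0663). Without aCF4 and aCF5 together neither Dmkn (0.071) nor Rspo1 (0.65) passed. The uroplakin gene Upk3b (2.82 ± 0.37, adjusted p = 0.332) and Lrrn4 (2.84 ± 0.31, adjusted p = 0.0576), named after their values were seen, did not pass. Aldh1a2, the retinoic acid synthesis enzyme of embryonic epicardium and likewise named after its values were seen, was at -0.02 ± 0.14 (adjusted p = 1). Against CF 5 of the 12 rose and 0 fell, namely Dmkn by 6.05 ± 0.16 (adjusted p = 4.58e-08), Slc9a3r1 by 2.93 ± 0.12 (adjusted p = 4.26e-06), Lrrn4 by 2.84 ± 0.26 (adjusted p = 0.0118), Rspo1 by 1.36 ± 0.14 (adjusted p = 0.0276) and Cdh1. Lrrn4 passed only without EpiSC5, CF1, CF2 or CF5 (0.0767 at most otherwise) and Rspo1 only without EpiSC3 (0.162 at most otherwise), and Rspo1 did not pass in a trended and robust fit (0.187). Between aCF and CF 1 of the 12 fell and 0 rose past the Bonferroni threshold. Efemp1, a matrix protein gene, fell by 1.54 ± 0.13 (adjusted p = 0.00556), which was lost without aCF4 and aCF5 together (0.17). After Benjamini-Hochberg adjustment of the limma test 2 were higher and 1 lower in aCF. The higher ones were Dmkn by 2.41 ± 0.35 (0.000933, and 0.695 by Bonferroni) and Slc9a3r1 by 0.53 ± 0.13 (0.0186).

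Array by array, the mean of the 12 mesothelial markers had the same order among the EpiSC as Wt1. It was 1.45 in EpiSC3, 1.40 in EpiSC2, 1.29 in EpiSC1, 1.10 in EpiSC4 and 0.99 in EpiSC5, where Wt1 stood at 2.45, 2.25, 1.99, 1.64 and 1.59. Among aCF the mean was highest in aCF3 (0.15) and lowest in aCF5 (-0.76), as Wt1 was, at 0.31 and -0.23, but the 3 arrays between them stood in another order. Bnc1 and Gata5 did not follow the marker order among the EpiSC, since Bnc1 was highest in EpiSC2 (2.66) and Gata5 lowest in EpiSC4 (1.86). EpiSC5 had the lowest Bnc1 and the highest Tcf21 and Tbx20 of the EpiSC, and EpiSC3 the lowest Tcf21 and Tbx20. The order is a description over 5 arrays that share probes and labelling. In bulk samples of this kind, fewer cells of a type and less RNA per cell cannot be told apart.

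**Figure D3:**
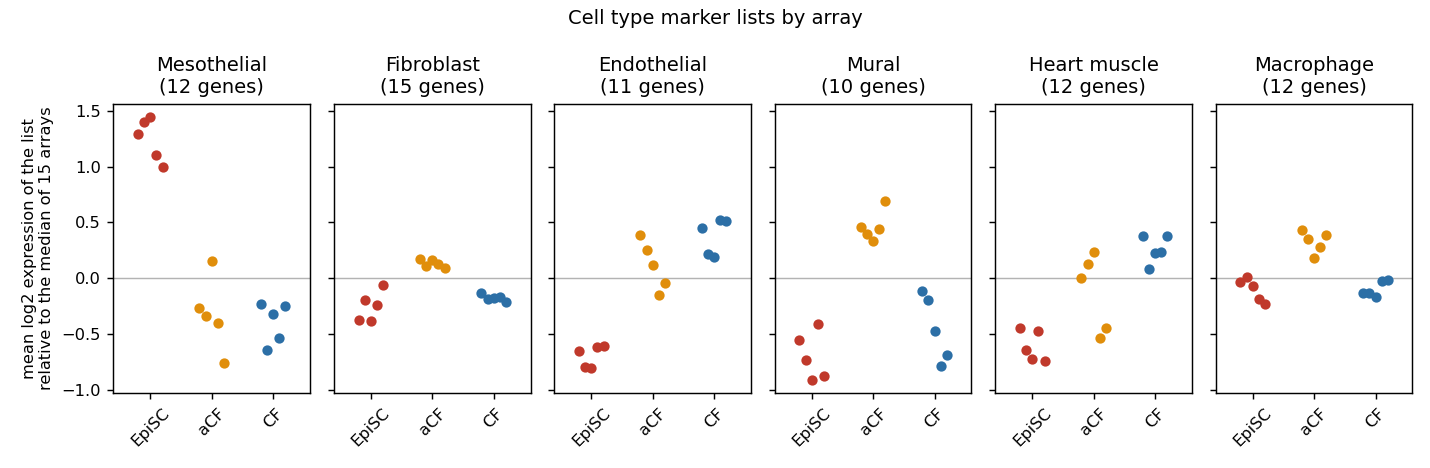
Mean log2 expression of 6 cell type marker lists relative to the median of 15 arrays (y axis) for EpiSC, aCF and CF (x axis), with 1 point per array. The mesothelial mean lies between 0.99 and 1.45 in EpiSC and at or below 0.15 in the fibroblasts, and the endothelial mean lies below every fibroblast array in EpiSC.

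Of 5 marker lists of other heart cells and of fibroblasts, the endothelial mean alone lay below every fibroblast array in all EpiSC arrays, as Tbx20 and Tcf21 did. The mean of 12 heart muscle markers lay between -0.74 and -0.44 in EpiSC, -0.54 and 0.24 in aCF, and 0.08 and 0.38 in CF, and that of 11 endothelial markers between -0.81 and -0.61 in EpiSC, -0.15 and 0.39 in aCF, and 0.19 and 0.52 in CF. Between EpiSC and aCF 0 of the 12 heart muscle markers passed by limma (6 were lower at an unadjusted p under 0.05, and 3 after Benjamini-Hochberg adjustment), and their means overlapped. Against CF 3 of the 12 were lower in EpiSC by Bonferroni and 9 by Benjamini-Hochberg adjustment, and 0 were higher, with a median difference of -0.44. Of the 3, Myl2 passed in all 10 single omissions (0.035 at most by limma). Myl3 passed in 6 (0.061 at most otherwise) and Tnnt2 only without EpiSC4 (0.151 at most otherwise). Within aCF the heart muscle mean was -0.54 in aCF4 and -0.45 in aCF5 against 0.01 to 0.24 in the other 3, while Tbx20 was at 0 in aCF4 and -0.03 in aCF5 against 0.08 to 0.21. The other orders ran differently. Among EpiSC the heart muscle mean was lowest in EpiSC5 (-0.74), where Tbx20 (-1.08) and Tcf21 (-0.34) were highest, and within aCF it was highest in aCF3 (0.24), where Tcf21 was lowest (-0.13). The mean of 15 fibroblast markers lay between -0.38 and -0.06 in EpiSC, 0.09 and 0.17 in aCF, and -0.21 and -0.13 in CF. Of these 0 passed between EpiSC and aCF by limma (11 were lower and 0 higher at an unadjusted p under 0.05, and 9 were lower after Benjamini-Hochberg adjustment), with a median difference of -0.34. The mural mean lay between -0.91 and -0.41 in EpiSC, 0.33 and 0.69 in aCF, and -0.79 and -0.11 in CF, and the macrophage mean between -0.23 and 0.01 in EpiSC, 0.18 and 0.43 in aCF, and -0.17 and -0.01 in CF. The fibroblast, mural and macrophage means thus overlapped between EpiSC and CF. The lower endothelial mean did not hold for each of its genes. Of the 11 endothelial markers 1 passed Bonferroni adjustment between EpiSC and aCF. After Benjamini-Hochberg adjustment 5 were lower and 0 higher, and the median difference was -0.35. Kdr (-0.09), Flt1 (-0.05) and Vwf (-0.09) hardly differed between EpiSC and aCF, and Esam was at 0.45 ± 0.13. Against CF 8 of the 11 were lower in EpiSC and 1 higher after Benjamini-Hochberg adjustment, with a median difference of -0.77. Cdh5 alone passed Bonferroni adjustment there, with a difference of -2.88, and did so in all 10 single omissions (0.000131 at most by limma). Of the marker genes past the threshold between EpiSC and aCF, the endothelial phosphatase gene Ptprb fell by 3.09 ± 0.15 (adjusted p = 1.92e-05), the pericyte gene Rgs5 fell by 3.58 ± 0.21 (adjusted p = 0.000162), the pericyte gene Higd1b fell by 2.10 ± 0.16 (adjusted p = 0.00235), and the desmin gene Des rose by 1.68 ± 0.16 (adjusted p = 0.0174). Higd1b (0.0957) and Des (0.0906) did not pass after quantile normalization, Higd1b not in a trended and robust fit (0.821), neither without aCF4 and aCF5 (0.115 and 0.0902), and Des in single omissions only without EpiSC2, EpiSC4 or aCF4 (0.107 at most otherwise). Ptprb did not stand for its list, since it rose in aCF against CF by 1.14 ± 0.19, where the endothelial median was -0.26. Centred values cannot show whether a defining marker was absent, and the part of other heart cells in the differences of Tbx20 and Tcf21 was not tested.

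Few relatives of the 7 genes passed the test. Of 11 other T-box genes with a value 0 passed between EpiSC and aCF (at an unadjusted p under 0.05, 3 were higher and 2 lower, with 2 and 1 after Benjamini-Hochberg adjustment), with a median of 0.00. Tbx5, a factor of the atria and the left ventricle, was at 1.34 ± 0.17 (adjusted p = 0.2) and was named after its values were seen. The atrial muscle gene Myl7, named likewise, differed by 2.38 ± 0.28 (adjusted p = 0.13). The other 4 genes of the atrial list did not follow it, with 0.04 for Sln, 0.06 for Myl4, -0.01 for Bmp10 and -0.76 for Nppa (adjusted p = 1 for each), and the median of the 5 was 0.04. Of the GATA factors and their cofactors, 3 of 8 had a value, and 0 passed between EpiSC and aCF (1 at an unadjusted p under 0.05 and after Benjamini-Hochberg adjustment). Zfpm1, which encodes the GATA cofactor FOG1, rose in EpiSC against CF by 1.23 ± 0.08 (adjusted p = 0.000318). Of 12 basic helix-loop-helix relatives and partners 0 passed between EpiSC and aCF (at an unadjusted p under 0.05, 4 were lower and 0 higher, and 3 were lower after Benjamini-Hochberg adjustment). Against CF the repressor gene Msc, musculin, was lower in EpiSC by -1.62 ± 0.16 (adjusted p = 0.0255), which passed only when EpiSC2 or EpiSC4 was omitted (0.16 at most otherwise) and was lost after quantile normalization (0.137) and in a trended and robust fit (0.0862).

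**Figure D4:**
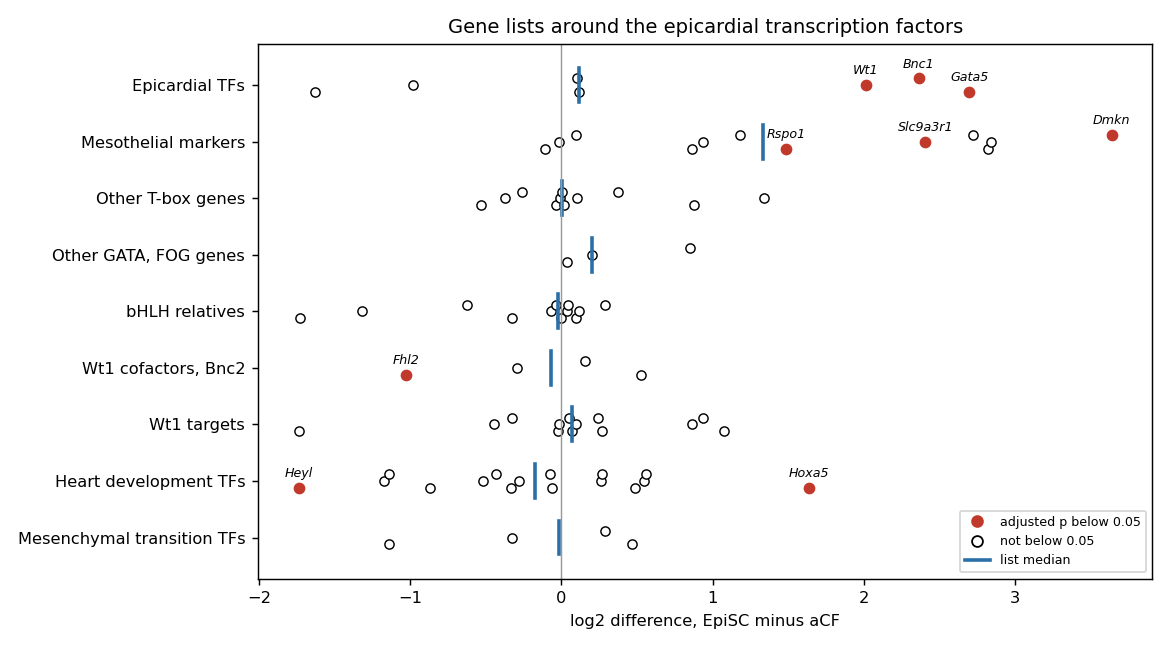
Log2 differences between EpiSC and aCF (x axis) for the 7 factors and 8 lists of related genes (y axis). Points are genes, red and named where the Bonferroni-adjusted p was below 0.05, and blue bars are list medians. The mesothelial markers have a median of 1.33, and the medians of the other 7 related lists lie between -0.18 and 0.21.

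Among partners of Wt1 the coactivator gene Fhl2 differed between EpiSC and aCF and between aCF and CF. It was lower in EpiSC than in aCF by -1.03 ± 0.11 (adjusted p = 0.038) and rose in aCF against CF by 1.62 ± 0.15 (adjusted p = 0.00937). The first call held only without aCF1 (0.228 at most otherwise), and it was lost after quantile normalization (0.248) and in a trended and robust fit (0.405). The second was lost without aCF2, aCF3, aCF5 or CF1 (0.063 at most) and without aCF4 and aCF5 together (0.303), as was the first (0.659). It was 1 of 4 measured genes of its list past the threshold in each of these comparisons. Between EpiSC and CF 0 of the 4 passed Bonferroni adjustment, and 2 were higher after Benjamini-Hochberg adjustment.

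Of 18 genes described as targets of Wt1 in various tissues 13 had a value. Between EpiSC and aCF 0 passed (at an unadjusted p under 0.05, 5 were higher and 2 lower, with 2 and 2 after Benjamini-Hochberg adjustment), and the median difference was 0.07. Against CF 2 rose and 1 fell in EpiSC. The E-cadherin gene Cdh1 rose by 1.09 ± 0.11 (adjusted p = 0.0325) and the interferon regulator gene Irf7 by 2.29 ± 0.15 (adjusted p = 0.000484), while the growth factor receptor gene Igf1r fell by 0.98 ± 0.10 (adjusted p = 0.0381). Cdh1 passed in none of the 10 omissions (0.051 to 0.195), after quantile normalization (0.0592) or in a trended and robust fit (0.313), Igf1r only without EpiSC3 (0.235 at most otherwise) and Irf7 in all 10. With replicate number as a block in the limma fit neither Irf7 (0.105) nor Igf1r (0.512) nor Cdh1 passed. Irf7 also rose in aCF against CF by 1.22 ± 0.11 (adjusted p = 0.00682), a call lost without aCF4 and aCF5 together (0.284) and with a replicate block (0.512).

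Of 16 other transcription factors of heart development with a value, 1 rose and 1 fell between EpiSC and aCF, with a median difference of -0.18. The homeobox gene Hoxa5 rose by 1.64 ± 0.16 (adjusted p = 0.0209), which passed in the omission of EpiSC5 alone (0.134 at most otherwise). It was lost in a trended and robust fit (0.0594) and without aCF4 and aCF5 together (0.693). Heyl, a Notch target, fell by 1.73 ± 0.07 (adjusted p = 7.58e-06), a call that held in all 10 omissions but not in a trended and robust fit (adjusted p = 1). Against CF both passed in the same directions, Hoxa5 with 1.98 ± 0.16 (adjusted p = 0.00394) and Heyl with -2.06 ± 0.09 (adjusted p = 5.33e-06). Klf4 fell in aCF against CF by 1.08 ± 0.11 (adjusted p = 0.0225), and this held only without aCF3 or CF1 (0.142 at most otherwise). It was lost in a fit of all 15 arrays (0.559), after quantile normalization (0.169) and in a trended and robust fit (0.345). Of 4 measured regulators of mesenchymal transition 0 passed between EpiSC and aCF (after Benjamini-Hochberg adjustment and with none, 1 was higher and 1 lower at 0.05). Prrx1 rose in EpiSC against CF by 0.64 ± 0.06 (adjusted p = 0.0304), and passed in no single omission (0.0526 to 0.193) nor in a trended and robust fit (0.499).

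The genes whose 15 values lay closest to those of the 3 higher factors were found by the root mean square difference over the 15 arrays, on the log2 scale. For Wt1 they were Lgals7, which encodes an epithelial galectin (0.162), Dpysl5 (0.197) and the serpin gene Serpinb5 (0.221). For Bnc1 they were the interleukin 22 receptor gene Il22ra1 (0.201), Wt1 itself (0.265) and Dpysl5 (0.287), and for Gata5 they were Il22ra1 (0.286), the kinase gene Stk26 (0.324) and Nkain4 (0.373). Wt1 and Bnc1 were thus near neighbours, at the second place in the list of Bnc1 and the fifth in that of Wt1. The neighbours differed between EpiSC and aCF by 1.97 ± 0.15 for Lgals7 (adjusted p = 0.00204), 1.81 ± 0.13 for Serpinb5 (adjusted p = 0.000879), 2.36 ± 0.23 for Il22ra1 (adjusted p = 0.0233), 2.37 ± 0.20 for Stk26 (adjusted p = 0.0046), 3.17 ± 0.24 for Nkain4 (adjusted p = 0.00248) and 2.13 ± 0.23 for Dpysl5 (adjusted p = 0.0512, not past the threshold). Il22ra1 passed only without EpiSC2, EpiSC4 or EpiSC5 (0.149 at most otherwise), and without aCF4 and aCF5 none of the neighbours passed (0.0697 at the lowest). These sizes follow from the choice of neighbours and lend the 3 factors no support.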

How the data were processed

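The deposited table holds log2 expression of 22206 probe sets on 15 arrays, each from 1 ng of amplified, biotin-labelled RNA per the labels. Per the series design text, GeneSpring GX 12.5 served the authors for quantile normalization and an exon-level RMA summary, and they set each probe set to its median over the 15 arrays, which hides levels. Base 2 of the deposited log2 values is inferred from that method and from their range, -4.77 to 5.52. The text's filter on raw signal could not be applied to centred values. Genome build and array dates are not given in the sources used here. The number of arrays limits the precision, and p-values measure the spread between arrays that the design text calls biological replicates.

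Pairing gave 15303 rows an identifier. Of 22206 identifiers the platform annotation names 19572 with 1 symbol and 2634 with none, and the reference gene table holds all 19572 by gene number. The first probe set by identifier was used for a gene. Each comparison was fitted to the arrays of its 2 groups with limma 3.58.1 in R 4.3.3 (lmFit, eBayes), 2-sided, with Bonferroni adjustment over all 22206 rows and a threshold of 0.05, as the design text states. The fit was tested on simulated data. Identical values made up at most 2.45% of any 2 arrays. The members and gene lists were chosen with earlier results of these data known. The 7 members were always named, then list genes past the threshold (at most 6 per list and comparison) and the 3 nearest genes of members past it. The alternatives were all arrays in 1 fit, quantile normalization, a trended and robust fit, Benjamini-Hochberg adjustment, paired rows only, a replicate block, omission of arrays and other pairings. The quantile normalization was a second one, run on the deposited values after their centring. It also made differences smaller, as for Gata5 between EpiSC and aCF (2.12 against 2.70). The trended and robust fit let the variance follow the mean of the centred values. That mean reflects shifts between groups and not signal intensity, so a call lost in this fit cannot be read as a matter of weak signal. For genes that are no members, the same alternatives except those on pairing, adjustment and paired rows were added after the data were seen.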

Additional observations from a re-analysis of the deposited data

Results flagged for a closer look

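Of 21 sets of 5 arrays (7 genes in 3 groups), 2 held an array set apart from the others by Dixon's test, and chance alone gives about 1 in 20. Tbx18 was lowest in aCF3 at -0.46, where the other aCF arrays lay between 0.03 and 0.20. Hand2 was lowest in EpiSC1 at -0.18, where the other EpiSC arrays lay between 0.05 and 0.11.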

How the results depend on the processing

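The number of the 7 genes past the threshold was 3 for EpiSC against aCF, 0 for aCF against CF and 3 for EpiSC against CF. With Benjamini-Hochberg adjustment it was 5, 1 and 5. In a fit of all 15 arrays it was 5 for EpiSC against CF. With a replicate block it was 1 for EpiSC against aCF and 0 for EpiSC against CF. It was 0 for EpiSC against aCF without aCF4 and aCF5, and 0 in both EpiSC comparisons with identifiers as deposited. Over single omissions it ranged from 0 to 3 for EpiSC against aCF and from 1 to 5 for EpiSC against CF. A replicate block also moved calls outside the 7 genes. Between EpiSC and aCF Slc9a3r1, Rspo1, Heyl, Ptprb, Rgs5 and Nkain4 still passed. Dmkn, Fhl2, Hoxa5, Higd1b, Des, Lgals7, Serpinb5, Il22ra1 and Stk26 did not. Between aCF and CF Efemp1, Fhl2, Irf7 and Klf4 did not. Between EpiSC and CF Dmkn, Slc9a3r1, Zfpm1, Heyl and Cdh5 still passed. Lrrn4, Rspo1, Cdh1, Msc, Irf7, Igf1r, Hoxa5, Prrx1, Tnnt2, Myl2 and Myl3 did not. Replicate numbers were not shown to pair the samples of aCF and CF or of EpiSC and CF. For EpiSC and aCF most arrays matched their own number best, and whether these samples are paired is not known. Across probe sets, same-numbered EpiSC and aCF arrays had deviations correlated between 0.019 and 0.154, aCF and CF between -0.00876 and 0.156, and EpiSC and CF between -0.022 and 0.04, and 4, 1 and 1 of 5 arrays matched their own number best.

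With identifiers as deposited, signs turned for EpiSC against aCF in Wt1 (-0.086), Tbx18 (-0.022), Tcf21 (0.06) and Tbx20 (0.21), for aCF against CF in Wt1 (-0.072), Bnc1 (0.078) and Hand2 (0.02), and for EpiSC against CF in Wt1 (-0.158) and Tbx20 (0.194), none past the threshold. Without the extra 3 rows Tcf21 differed by -0.068 for EpiSC against aCF, by 0.206 for aCF against CF and by 0.138 for EpiSC against CF. Quantile normalization turned Bnc1 (0.0164) and Tbx20 (0.0287) for aCF against CF, and leaving out aCF4 and aCF5 turned Tbx20 (0.042), all near 0 and past the threshold in no setting. Single omissions gave Tbx18 -0.0105 to 0.195 for EpiSC against aCF, and for aCF against CF they gave Bnc1 -0.104 to 0.054, Tbx20 -0.058 to 0.015, Hand2 -0.079 to 0.031 and Nkain4 -0.0865 to 0.235. Under the other pairings a gene name takes the values of another row, so those turns are not changes in the same values. The causes of the other turns were not tested.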
